A study of Mus musculus with 6 samples.

Results

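The heterotrimeric G protein subunit genes and the Rgs genes were read in RNA pulled down from the polysomes of Lhx5-line midbrain cells (IP) and in the input libraries. Members were all gene rows named for a G alpha, beta or gamma subunit or for a numbered Rgs gene, with Gnas left out, which gave 53 of 32531 gene rows. They were 15 alpha, 5 beta and 12 gamma subunit genes and 21 Rgs genes. RNA came from the midbrain of untreated control mice, of an age the labels do not give, of the transgenic line Lhx5-TRAP DT154. In it EGFP fused to the ribosomal protein Rpl10a is named for the transcription factor gene Lhx5, and the labels do not say which cells carry the tag. Antibodies against EGFP pulled down tagged polysomes for 3 IP libraries, and another 3 libraries are titled Input. All 6 libraries come from this line. A second label calls the input libraries Unbound, so they may be whole homogenate or what the pull-down left behind. Nothing in the labels ties the replicates to separate animals, and p-values therefore measure only the spread between these libraries, which may be technical.

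A heterotrimeric G protein carries the signal of a G protein-coupled receptor into the cell. The receptor makes the alpha subunit exchange GDP for GTP, and the alpha subunit and the beta-gamma dimer then act on adenylyl cyclases, phospholipase C and ion channels. Rgs proteins speed the hydrolysis of GTP by alpha subunits of the Gi/o and Gq classes and so end the signal. In neurons, Gi/o signalling commonly lowers excitability and transmitter release, and cell types differ in which subunits and Rgs proteins they make.

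Gene totals were 38058239 to 45841499 counts per library. At that depth 3 counts corresponded to 0.0688 to 0.0741 CPM, a floor that covers counting error only. CPM are counts scaled to library size multiplied by the TMM scaling factor of each library. That factor was 0.932 to 0.993 in IP and 1.02 to 1.07 in input, so it raised IP levels relative to input. Whether IP and input libraries overlap was read after this scaling. Member genes took 0.817% to 0.900% of gene counts in IP and 0.690% to 0.852% in input. Lhx5 had 46.8, 56.0 and 49.1 CPM in the IP libraries and 3.92, 3.81 and 2.20 in the input libraries. The 8 neuronal marker genes summed to 19318 to 24343 CPM in IP and 9519 to 13014 in input. Of these 6 were higher, Map2 was lower (415 to 508 CPM in IP and 768 to 871 in input) and Syt1 was not called, and Snap25 alone had 15185 to 19783 CPM in IP. A pair of libraries stood apart in markers of Purkinje cells or striatum. The 6 Purkinje cell markers reached a sum of 1265 CPM in IP replicate 2, against 252 in replicate 1 and 185 in replicate 3. In input they summed to 272, 307 and 425 CPM, and 1 of the 6 was called higher in IP and 5 were not called. The 7 striatal markers reached a sum of 1230.0 CPM in input replicate 3, against 345 in replicate 1 and 209.9 in replicate 2. Their sums in IP were 289 to 305 CPM. Choroid plexus markers summed to 407, 48.6 and 1425 CPM in input and to 34.8 to 64.5 in IP. The 8 cortex markers summed to 802 to 1164 CPM in input and to 261 to 396 in IP, with 6 lower, 1 higher and 1 not called. The 8 dopamine neuron markers of midbrain summed to 72.7 to 96.1 CPM in IP and to 457, 380 and 192 in input. Of the 7 tested, 0 were higher in IP, 5 lower and 2 not called. In such bulk libraries, fewer cells of a type, less RNA per cell and less of it on tagged polysomes cannot be told apart.

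Of the 53 members, 46 passed the filter on low counts and were tested. In IP, 12 were higher, 18 were lower and 16 were not called (edgeR's quasi-likelihood test, adjusted p under 0.05 over all genes tested). That is 65.2% of the tested members, beside 53.9% of all 17197 genes tested, with 26% of all genes higher and 27.9% lower. With upper-quartile scaling, which moved the median log2 fold change of all genes from -0.01 to -0.17, 8 members were higher and 21 lower, and with library totals alone (median -0.15) 9 were higher and 21 lower. The median log2 fold change of the tested members was -0.22. Past 2-fold (edgeR's glmTreat), 2 members were higher and 11 lower, beside 2.25% and 12.9% of all genes. The IP and input libraries did not overlap for 16 members with IP above and 20 with IP below, beside 30.7% and 32.8% of all genes (63.5% in either direction). The shares of members called were thus above the background in the downward direction and at the background upward, and no test set them against other genes.

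**Figure D1:**
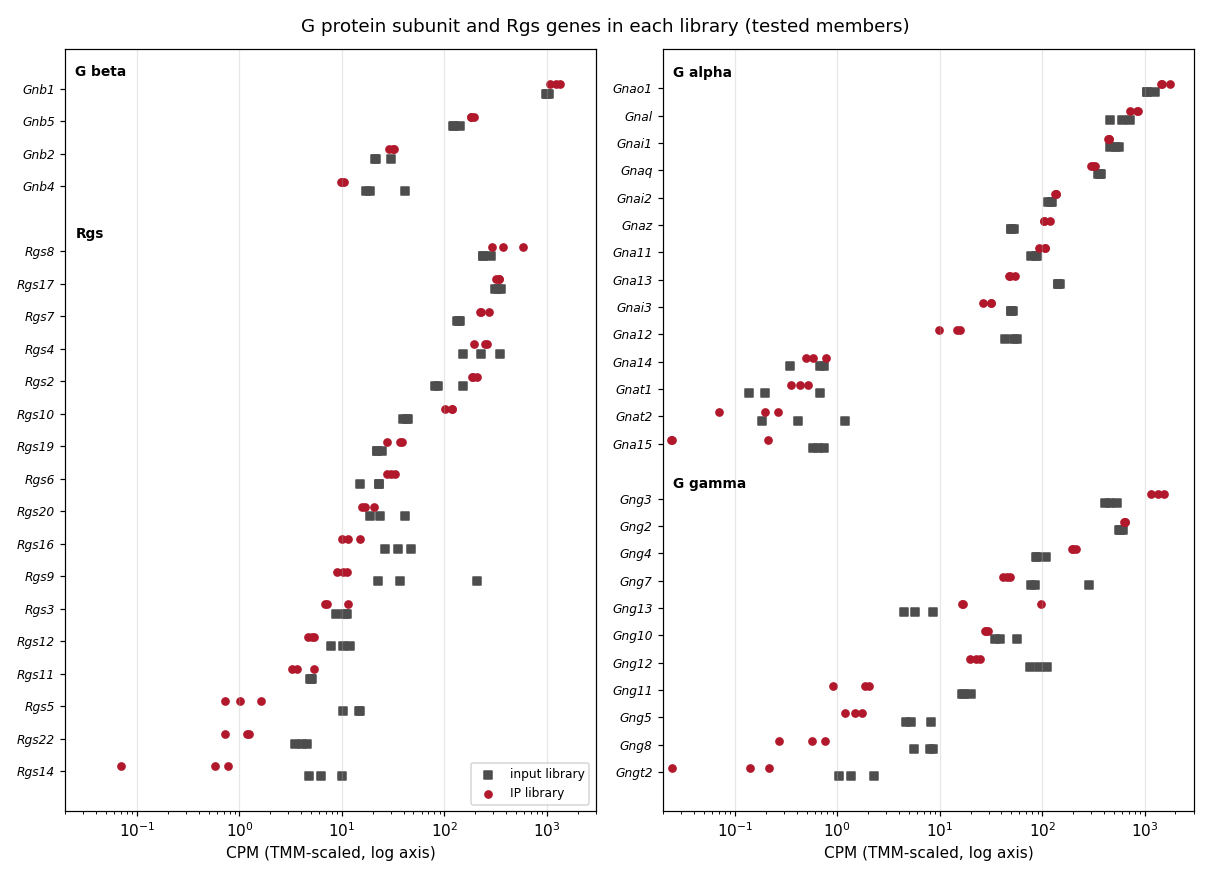
Level of each tested member in each library, in CPM on a log axis, with red circles for the 3 IP libraries and grey squares for the 3 input libraries, ordered within each class by the IP mean. Gng3 stands apart to the right in IP at 1152 to 1556 CPM against 412 to 537 in input, while Gng8, Gng11, Rgs5 and Rgs14 lie to the left in IP, and single libraries stand off in Gng13, Gng7 and Rgs9.

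The promoter windows of 4 members are shown because they are the starts of the only 2 members past 2-fold upward, Gng3 and Rgs10, and of 2 Rgs genes past 2-fold downward, Rgs5 and Rgs16, each of which lies beside an Rgs gene that was not lower. Each window runs from 250 bases before to 50 bases after the RefSeq start (GRCm38.p6), 5′ to 3′ on the gene's strand, and capitals mark CpG dinucleotides. The Gng3 window is chr19:8839197-8839496 on the minus strand, that of Rgs10 is chr7:128418123-128418422 on the minus strand, that of Rgs5 is chr1:169655251-169655550 on the plus strand, and that of Rgs16 is chr1:153740103-153740402 on the plus strand.
Gng3: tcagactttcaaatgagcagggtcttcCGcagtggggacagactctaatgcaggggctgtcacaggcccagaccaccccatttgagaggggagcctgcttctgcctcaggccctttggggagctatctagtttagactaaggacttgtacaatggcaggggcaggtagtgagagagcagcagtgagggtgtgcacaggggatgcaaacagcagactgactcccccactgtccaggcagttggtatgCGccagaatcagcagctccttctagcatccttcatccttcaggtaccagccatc
Rgs10: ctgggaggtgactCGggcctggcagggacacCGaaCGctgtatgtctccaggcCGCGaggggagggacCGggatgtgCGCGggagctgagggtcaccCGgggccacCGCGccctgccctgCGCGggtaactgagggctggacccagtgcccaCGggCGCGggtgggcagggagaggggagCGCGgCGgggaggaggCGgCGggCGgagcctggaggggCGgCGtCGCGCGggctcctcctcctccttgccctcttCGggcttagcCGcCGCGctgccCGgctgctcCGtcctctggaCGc
Rgs5: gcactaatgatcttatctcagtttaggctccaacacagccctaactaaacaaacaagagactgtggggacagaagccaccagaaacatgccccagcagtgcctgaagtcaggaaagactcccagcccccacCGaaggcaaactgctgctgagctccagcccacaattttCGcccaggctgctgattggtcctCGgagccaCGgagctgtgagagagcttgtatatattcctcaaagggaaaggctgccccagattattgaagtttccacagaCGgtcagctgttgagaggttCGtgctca
Rgs16: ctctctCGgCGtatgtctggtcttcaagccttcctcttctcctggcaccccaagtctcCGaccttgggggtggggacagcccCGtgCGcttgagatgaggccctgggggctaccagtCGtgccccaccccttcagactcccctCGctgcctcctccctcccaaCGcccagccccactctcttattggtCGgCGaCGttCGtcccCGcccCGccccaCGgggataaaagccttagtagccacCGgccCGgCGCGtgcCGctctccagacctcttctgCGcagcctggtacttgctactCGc
The Gng3 window holds 2 CpGs and the Rgs10 window 34. The Rgs5 window holds 6 and the Rgs16 window 22. Over 32851 RefSeq windows of this length the median was 7 CpGs, with quartiles of 3 and 20. RefSeq windows were matched for 39 of the 53 members, and each gene was described by its window with most CpGs. That choice raises the value of members with several starts. The median over all windows counts every start, so the member medians cannot be set directly against it. The 11 higher members had a median of 33 (2 to 42), the 13 lower members 22 (6 to 52) and the 11 members not called 17 (5 to 53), so the ranges overlapped nearly throughout. The letters TATAAA, searched on both strands, are in no window shown here. They are in windows of 5 members (Gnb5, Gngt1, Rgs3, Rgs4 and Rgs9) and in 13.6% of all windows. Matches are a description of the letters and not of binding.

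**Figure D2:**
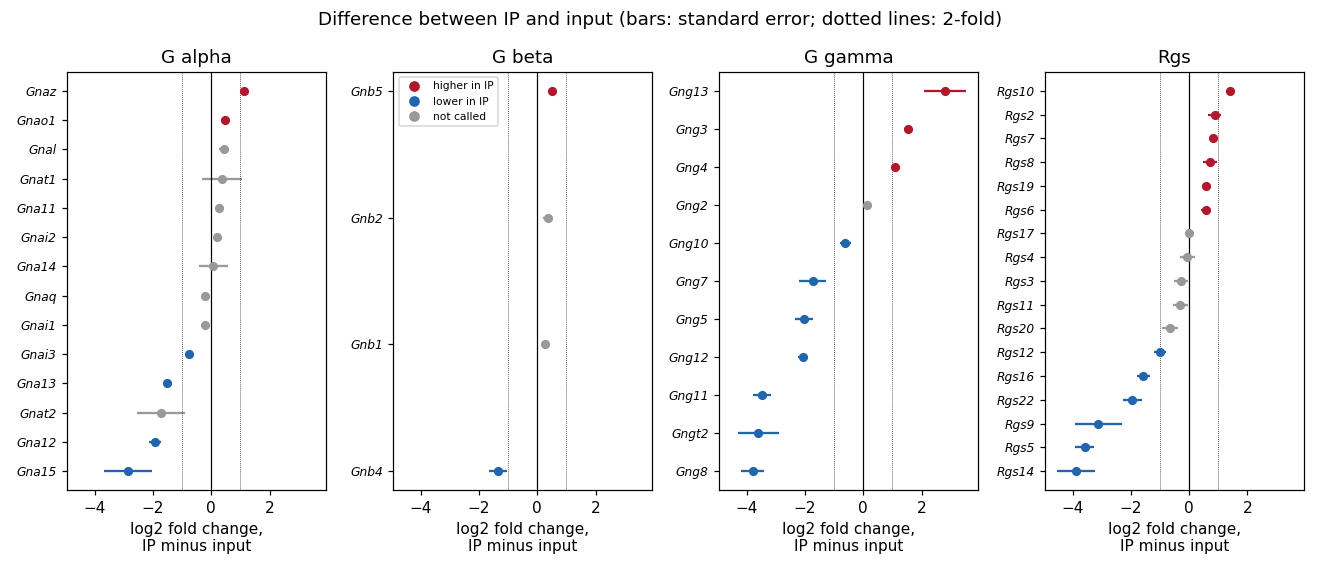
Log2 fold change of IP over input for each tested member by class, with bars for the standard error, red for higher, blue for lower and grey for not called, and dotted lines at 2-fold. The gamma panel spreads from -3.79 for Gng8 to 2.80 for Gng13 and the Rgs panel from -3.88 for Rgs14 to 1.41 for Rgs10, while the beta panel spans -1.35 to 0.51.

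Of 14 alpha genes tested, 2 were higher (Gnaz and Gnao1), 4 lower (Gna12, Gna13, Gna15 and Gnai3) and 8 not called. The share called was 42.9%, beside 53.9% of all genes. Gnat3, the gustducin of taste cells, had too few counts to test. Gnaz encodes Gz, a member of the Gi/o class that is rich in neurons and hydrolyses GTP slowly. It had 103, 104 and 119 CPM in IP and 49.1, 49.8 and 52.7 in input, so every IP library was above every input library. Gnaz was thus 2.15-fold higher (log2 fold change 1.10, SE 0.11, adjusted p 0.000116). Gnao1, the alpha subunit of Go, the most plentiful G protein of brain, had 1432, 1785 and 1478 CPM in IP and 1048, 1065 and 1264 in input. After TMM scaling the IP libraries of Gnao1 were again all above the input libraries (log2 fold change 0.48, SE 0.13, adjusted p 0.0125). That call was lost without input replicate 1 (0.43, adjusted p 0.0506), without input replicate 2 (0.44, adjusted p 0.0528), with upper-quartile scaling (0.32, adjusted p 0.068) and with library totals alone (0.34, adjusted p 0.0697).

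Of the Gi genes, Gnai3 was called and Gnai1 and Gnai2 were not. Gnai3 had 31.8, 31.7 and 26.3 CPM in IP and 51.8, 49.7 and 49.5 in input and fell by 0.75 on the log2 scale (SE 0.12, adjusted p 0.00115). Gnai1, a Gi alpha subunit that inhibits adenylyl cyclase, had 438, 445 and 447 CPM in IP and 456, 524 and 566 in input (log2 fold change -0.22, SE 0.11, adjusted p 0.123). Gnai1 was called lower with upper-quartile scaling (-0.37, adjusted p 0.0219) and with library totals alone (-0.36, adjusted p 0.0295). Gnai2, another Gi alpha subunit, had 135 to 138 CPM in IP and 114 to 123 in input (0.18, SE 0.09, adjusted p 0.142). The photoreceptor transducins Gnat1 and Gnat2 stayed at 1.18 CPM or less in every library and were not called.

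Both genes of the G12/13 class, which couple receptors to the actin cytoskeleton, fell past 2-fold. Gna12 had 15.6, 9.89 and 14.7 CPM in IP and 56.7, 43.4 and 53.3 in input (log2 fold change -1.93, SE 0.20, adjusted p 0.000135). Gna13 had 47.9, 48.8 and 54.2 CPM in IP and 148, 142 and 141 in input (log2 fold change -1.52, SE 0.10, adjusted p 2.57e-05). For both genes the groups were far apart, with the highest IP library under the lowest input library. Gna12 was 3.82-fold and Gna13 2.86-fold lower in IP. Amz1 overlaps 13.3% of the exon bases of Gna12.

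In the Gq class, which activates phospholipase C beta, Gna15 was lower and Gnaq, Gna11 and Gna14 were not called. Gnaq had 316, 328 and 298 CPM in IP and 349, 374 and 369.8 in input (log2 fold change -0.21, SE 0.10, adjusted p 0.0917), and it was called lower with upper-quartile scaling (-0.37, adjusted p 0.0133), with library totals alone (-0.35, adjusted p 0.01999) and with a filter at 1 CPM (-0.28, adjusted p 0.0356). Gna11 had 92.8 to 106 CPM in IP and 77.9 to 89.9 in input (0.26, SE 0.11, adjusted p 0.0771), and it was called higher with the replicate number as a block (0.26, adjusted p 0.0438). Gna15, the promiscuous alpha subunit of blood cells, was near the floor, with 0.0239, 0.0244 and 0.210 CPM in IP and 0.577, 0.734 and 0.642 in input. Its log2 fold change of -2.86 (SE 0.81, adjusted p 0.0166) rests on 1, 1 and 9 counts in IP. It was -4.58 without IP replicate 3, and the call was lost without IP replicate 1 (adjusted p 0.0520), without input replicate 2 (adjusted p 0.0550) and without IP replicate 2 and input replicate 3 together (adjusted p 0.0714). Gna14 stayed at 0.781 CPM or less and was not called.

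Gnal, the Golf alpha subunit that couples dopamine D1 and adenosine A2a receptors to adenylyl cyclase in the striatum, had 842, 714 and 858 CPM in IP and 598, 458 and 726 in input. The groups overlapped, since input replicate 3, the library high in striatal markers, lay above IP replicate 2. The log2 fold change of Gnal was 0.44 (SE 0.17, adjusted p 0.0549). It was called higher without input replicate 3 (0.58, adjusted p 0.0116), with the replicate number as a block (0.46, adjusted p 0.0107), without IP replicate 2 and input replicate 3 together (0.64, adjusted p 0.0148), without a filter on low counts (0.45, adjusted p 0.0410) and with limma-voom (0.46, adjusted p 0.0415).

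Of 4 beta genes tested, 1 was higher, 1 lower and 2 not called (50% called, beside 53.9% of all genes). Gnb1, the main beta subunit of brain, had 1221, 1083 and 1343 CPM in IP and 1047, 980.4 and 1001 in input (log2 fold change 0.27, SE 0.11, adjusted p 0.0650), with every IP library above input. Without IP replicate 2 it was called higher (0.31, adjusted p 0.0338). Gnb2, a widely made beta subunit, had 29.1, 31.7 and 32.4 CPM in IP and 21.5, 21.0 and 30.3 in input (0.36, SE 0.16, adjusted p 0.099). It was called higher without input replicate 3 (0.52, adjusted p 0.0135), without that library and IP replicate 2 (0.48, adjusted p 0.0384) and with the replicate number as a block (0.37, adjusted p 0.0465). Gnb4 had 9.73, 10.6 and 9.96 CPM in IP and 18.9, 17.3 and 41.0 in input, and it fell by 1.35 on the log2 scale (SE 0.31, adjusted p 0.00663). Without input replicate 3 the log2 fold change of Gnb4 was -0.87 (adjusted p 0.00366). Gnb3, the cone beta subunit, had at most 0.0977 CPM in IP and 0.529 in input and was not tested.

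Gnb5 was the beta subunit called higher. It is the atypical beta subunit that pairs with Rgs proteins of the R7 family in place of a gamma subunit. Gnb5 had 182, 182 and 195 CPM in IP and 126, 121 and 144 in input (log2 fold change 0.51, SE 0.11, adjusted p 0.00402). Among its R7 partners, Rgs7 had 227, 274 and 223 CPM in IP and 139.6, 133 and 142 in input (log2 fold change 0.80, SE 0.12, adjusted p 0.000676). Rgs6 had 27.6, 33.0 and 29.9 CPM in IP and 22.8, 23.0 and 14.98 in input (log2 fold change 0.57, SE 0.18, adjusted p 0.0272). In all 3 genes every IP library was above every input library. The Rgs6 call was lost without input replicate 3 (0.37, adjusted p 0.0666), without IP replicate 2 (0.47, adjusted p 0.115), without both (0.28, adjusted p 0.166), with upper-quartile scaling (0.42, adjusted p 0.0791) and with library totals alone (0.44, adjusted p 0.0758). Rgs11 had 3.25 to 5.35 CPM in IP and 4.94 to 5.14 in input and was not called (-0.30, SE 0.25, adjusted p 0.331). Rgs7bp, which anchors R7 complexes to the membrane and is not a member, had 363 to 423 CPM in IP and 359 to 522 in input (-0.16, SE 0.15, adjusted p 0.386).

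Rgs9, the remaining R7 gene and the chief Rgs of striatal neurons, was lower in IP. It had 10.2, 9.01 and 11.3 CPM in IP and 36.6, 22.4 and 206 in input, so input replicate 3 stood far above the other input libraries. The log2 fold change of Rgs9 was -3.12 (SE 0.81, adjusted p 0.0142), and it was -1.56 (adjusted p 0.0013) without input replicate 3, with the other input libraries still above IP. The Rgs9 call was lost with the replicate number as a block (-2.43, adjusted p 0.0563), without IP replicate 1 (adjusted p 0.0665), without IP replicate 3 (adjusted p 0.0571) and without a low-count filter (adjusted p 0.0809). Gng7, the gamma subunit that pairs with Golf in the striatum, had 44.9, 41.5 and 48.1 CPM in IP and 85.4, 77.4 and 284 in input. Its log2 fold change was -1.73 (SE 0.45, adjusted p 0.0118) and was -0.89 (adjusted p 0.000884) without input replicate 3. The Gng7 call was lost without IP replicate 1 (adjusted p 0.0566), IP replicate 2 (adjusted p 0.0506) or IP replicate 3 (adjusted p 0.0606) and without a low-count filter (adjusted p 0.0716). Striatal markers were high in that same input library, with 0 of 7 higher and 4 lower in IP. The striatal marker Ppp1r1b had 6.62, 20.3 and 4.85 CPM in IP and 55.1, 21.7 and 316 in input, so input replicate 1 also held more of it than IP. Summed, the 7 striatal markers were at 289 to 305 CPM in IP, below input replicate 1 (345) and above input replicate 2 (209.9). The part of striatal RNA in the lower levels of Rgs9 and Gng7 was not tested.

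Gamma subunits had a median log2 fold change of -1.73, beside -0.07 for alpha, 0.31 for beta and -0.27 for Rgs genes and -0.01 for all genes tested. Of 11 gamma genes tested, 3 were higher (Gng3, Gng4 and Gng13), 7 lower and 1, Gng2, not called. The share called was 90.9%, beside 53.9% of all genes, of which 26% were higher and 27.9% lower. The rod gene Gngt1 had no count in 5 of 6 libraries. Gng3, a gamma subunit made almost only by neurons, had 1355, 1152 and 1556 CPM in IP and 537, 457 and 412 in input. Every IP library was far above every input library. The log2 fold change of Gng3 was 1.53 (SE 0.15, adjusted p 0.000108), and it exceeded 2-fold (glmTreat adjusted p 0.00747). Bscl2 overlaps 24.2% of the exon bases of Gng3 on the other strand. Reads set aside as ambiguous were 1.59% to 1.68% of all counts, summary lines included, in IP and 8.03% to 10.9% in input, and their part in this difference was not tested.

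Gng4, another neuronal gamma subunit, had 214, 197 and 200.1 CPM in IP and 87.4, 88.9 and 109 in input (log2 fold change 1.10, SE 0.12, adjusted p 0.000196). The 3 IP libraries of Gng4 agreed closely and lay well above input. Gng2, the widely used partner of Gnb1, had 648, 628 and 645 CPM in IP and 574, 556 and 617 in input. The groups of Gng2 did not overlap after TMM scaling, but the log2 fold change of 0.14 (SE 0.09, adjusted p 0.251) was not called.

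Gng13, a gamma subunit of Purkinje cells, olfactory neurons and taste cells, stood apart in IP replicate 2. It had 16.7, 98.3 and 16.4 CPM in IP and 5.75, 8.67 and 4.49 in input. All IP libraries were above input, and IP replicate 2 was far above the other IP libraries. On the log2 scale the difference was 2.80 (SE 0.72, adjusted p 0.0125) and was 1.36 (adjusted p 0.00861) without IP replicate 2. In IP replicates 1 and 3 the summed Purkinje markers (252 and 185 CPM) lay below those of input (272 to 425). Pcp2, which is on that list, gave only 0.167 and 0.117 CPM of those 2 IP sums, so other listed genes made up nearly all of them. The part of Purkinje cell RNA in the difference of Gng13 was not tested. The call was lost without input replicate 1 (adjusted p 0.0554), without input replicate 3 (adjusted p 0.0901) and without a low-count filter (adjusted p 0.0793). Chtf18 overlaps 51.6% of the exon bases of Gng13. Pcp2, a Purkinje cell modulator of Gi/o subunits from the accessory list, had 0.167, 77.9 and 0.117 CPM in IP and 0.505, 3.03 and 0.296 in input (log2 fold change 4.34, SE 2.41, adjusted p 0.179).

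**Figure D3:**
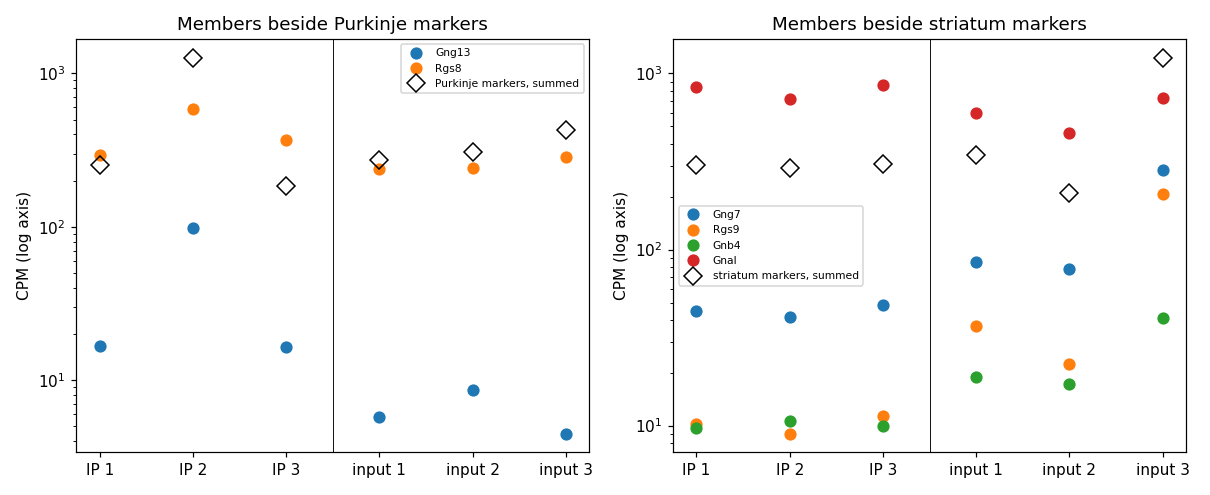
CPM on a log axis in each library for members beside the summed markers of Purkinje cells (left) or striatum (right), with open diamonds for the marker sums. Gng13 and Rgs8 stand highest in IP replicate 2, where Purkinje markers sum to 1265 CPM, and Gng7, Rgs9 and Gnb4 stand highest in input replicate 3, where striatal markers sum to 1230.0 CPM.

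Of the lower gamma genes, Gng8, Gng11, Gng12, Gng5 and Gngt2 fell past 2-fold. Gng11, found in vessels and other non-neuronal cells, had 0.908, 1.86 and 2.05 CPM in IP and 20.3, 17.1 and 16.3 in input (log2 fold change -3.48, SE 0.30, adjusted p 6.62e-05). Gng12, a gamma subunit of many non-neuronal cells, had 22.6, 19.8 and 24.4 CPM in IP and 93.1, 75.6 and 113 in input (log2 fold change -2.07, SE 0.17, adjusted p 5.05e-05). Gng8, known from vomeronasal and habenular neurons, had 0.765, 0.269 and 0.560 CPM in IP and 7.96, 5.64 and 8.61 in input (log2 fold change -3.79, SE 0.40, adjusted p 0.000156). In each of these genes every input library was far above every IP library. The cone gene Gngt2 had 0.215, 0.0244 and 0.140 CPM in IP, on 9, 1 and 6 counts, and 1.37, 2.29 and 1.04 in input (-3.60, SE 0.71, adjusted p 0.00297). Abi3 overlaps 12.5% of the exon bases of Gngt2. Gng5 had 1.19 to 1.73 CPM in IP and 4.64 to 8.27 in input (-2.04, SE 0.31, adjusted p 0.000909), and since a pseudogene copy, Gng5-ps, can take or hide its reads, its level is uncertain. The same holds for Gnb1, with copies Gnb1-ps2 and Gnb1-ps3, and for Gng2, with Gng2-ps1, and for their shares of a class. Reads set aside as not unique were 43.8% to 44.5% of all counts, summary lines included, in IP and 31.8% to 33.0% in input. Their part in the levels and fold changes of Gng5, Gnb1 and Gng2 was not tested. Gng10, a widely made gamma subunit, fell least, with 27.8, 29.5 and 28.0 CPM in IP and 34.6, 38.8 and 57.1 in input (-0.61, SE 0.19, adjusted p 0.0222). Without input replicate 3 Gng10 was at -0.39 (adjusted p 0.0386), and its call was lost without IP replicate 1 (adjusted p 0.0655) or IP replicate 3 (adjusted p 0.0544).

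Markers of non-neuronal cells were lower in the same IP libraries. Of 8 endothelial markers 6 were lower, with sums of 20.4 to 33.6 CPM in IP and 35.8 to 66.6 in input. Of 8 mural cell markers 7 were lower, at 5.40 to 6.72 CPM in IP and 20.5 to 45.0 in input. Oligodendrocyte markers were all lower (8 of 8), at 329.8 to 489.8 CPM in IP and 4259.9 to 5067 in input. Of 8 astrocyte markers 7 were lower, at 746 to 774 CPM in IP and 1455 to 2013 in input, with Aldoc, the marker not called, at 579 to 631 CPM of the IP sum. Of 8 microglial markers 7 were lower, at 12.8 to 25.5 CPM in IP and 61.9 to 101 in input. None of these markers was at 0 in all IP or all input libraries, and none was higher in IP. The part of these cells in the lower levels of Gng11, Gng12, Gna12, Gna13 and Rgs5 was not tested.

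Of 17 Rgs genes tested, 6 were higher, 6 lower and 5 not called. The share called was 70.6%, beside 53.9% of all genes, which also went both ways (26% higher and 27.9% lower). Besides Rgs6 and Rgs7, the higher genes were Rgs10, Rgs2, Rgs8 and Rgs19. Rgs10, a short Rgs protein of the R12 family made in neurons and microglia, had 119.5, 101 and 118 CPM in IP and 43.3, 39.7 and 44.6 in input. The log2 fold change of Rgs10 was 1.41 (SE 0.12, adjusted p 5.35e-05), past 2-fold (glmTreat adjusted p 0.00812), and its IP libraries all lay above the input libraries. Rgs2, a regulator of Gq and an activity-induced gene, had 190.4, 208 and 188 CPM in IP and 86.7, 81.5 and 152 in input (0.87, SE 0.23, adjusted p 0.0109). Rgs19, the GAIP protein of the RZ family, had 27.5, 37.2 and 38.5 CPM in IP and 22.3, 22.1 and 24.7 in input (0.58, SE 0.15, adjusted p 0.0126), and its call was lost with upper-quartile scaling (0.43, adjusted p 0.0504) and without IP replicate 2 and input replicate 3 together (0.52, adjusted p 0.0631).

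Rgs8, an R4 family gene rich in Purkinje cells, had 295, 583 and 370.3 CPM in IP and 237, 241 and 284 in input. IP replicate 2 was highest and the groups did not overlap after TMM scaling. On the log2 scale the difference was 0.71 (SE 0.23, adjusted p 0.0281), and it was 0.36 (adjusted p 0.0615) without IP replicate 2 and 0.42 (adjusted p 0.0394) without that library and input replicate 3. The call was also lost without input replicate 1 (0.67, adjusted p 0.0846), input replicate 2 (0.68, adjusted p 0.0804) or input replicate 3 (0.78, adjusted p 0.0506), with upper-quartile scaling (0.56, adjusted p 0.0729) and with library totals alone (0.58, adjusted p 0.0787).

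Rgs14, an R12 protein best known from hippocampal area CA2 that also binds inactive Gi subunits, had the lowest log2 fold change of all members. It had 0.574, 0.781 and 0.0700 CPM in IP, on 24, 32 and 3 counts, and 6.25, 4.79 and 10.02 in input (log2 fold change -3.88, SE 0.65, adjusted p 0.00137). Rgs5, a pericyte gene, had 0.717, 1.61 and 1.003 CPM in IP and 10.2, 14.9 and 14.8 in input (-3.58, SE 0.33, adjusted p 8.56e-05). Rgs22 had 1.24, 1.17 and 0.723 CPM in IP and 4.04, 3.51 and 4.59 in input (-1.95, SE 0.32, adjusted p 0.00131). In these genes the IP libraries lay at 1.61 CPM or less and never reached input. Rgs16, an R4 gene of the thalamus among other sites, had 11.6, 14.97 and 10.1 CPM in IP and 35.2, 26.3 and 46.9 in input (-1.57, SE 0.24, adjusted p 0.000846). Rgs12, a large scaffold of the R12 family, had 4.64 to 5.38 CPM in IP and 7.89 to 12.05 in input (log2 fold change -0.995, SE 0.21, adjusted p 0.00405).

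The Rgs genes not called were Rgs17, Rgs4, Rgs20, Rgs3 and Rgs11. Rgs17, the RZ family gene that acts on Gz and other Gi/o subunits, had 343, 318 and 339 CPM in IP and 336, 310.5 and 355 in input (log2 fold change -0.00, SE 0.10, adjusted p 0.997). Gnaz, whose product Rgs17 acts on, rose by 1.10 on the log2 scale. Rgs4, which acts on Gi/o and Gq subunits in forebrain neurons, had 248, 262 and 195 CPM in IP and 226, 152 and 354 in input (-0.06, SE 0.27, adjusted p 0.873), and input libraries lay on both sides of IP. Rgs20, also an RZ gene, had 15.6 to 20.6 CPM in IP and 18.7 to 41.5 in input (-0.66, SE 0.28, adjusted p 0.0741), and it was called lower without input replicate 2 (-0.88, adjusted p 0.0259), with DESeq2 (-0.69, adjusted p 0.0338), with upper-quartile scaling (-0.82, adjusted p 0.0363) and with library totals alone (-0.81, adjusted p 0.0399). Rgs3, an R4 gene, had 6.86 to 11.5 CPM in IP and 8.83 to 11.2 in input (-0.27, SE 0.24, adjusted p 0.357), and it was called lower without IP replicate 2 (-0.58, adjusted p 0.0437).

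Some members lie beside each other in the genome. Rgs5 and Rgs4 lie 45.7 kb apart on chromosome 1 (GENCODE M21, GRCm38), with log2 fold changes of -3.58 and -0.06. Rgs8 and Rgs16 lie 40.0 kb apart on the same chromosome, and Rgs8 was higher (0.71) while Rgs16 was lower (-1.57). The promoter windows of Rgs5 and Rgs16 are those printed above. A cluster of 5 R4 genes spans positions 143999338 to 144775435 of chromosome 1. Of these only Rgs2 was tested and rose, and Rgs1, Rgs13, Rgs18 and Rgs21, genes of immune and taste cells, had 0 counts in all 3 IP libraries, which allows up to 0.0733 CPM in a library, and at most 0.459 CPM in input. Each Gi gene lies beside a transducin or gustducin gene, Gnai3 5.85 kb from Gnat2, Gnai2 39.1 kb from Gnat1 and Gnai1 245.3 kb from Gnat3, and the Gnat genes were at 1.18 CPM or less. Gna11 and Gna15 are 4.498 kb apart, with log2 fold changes of 0.26 and -2.86.

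Levels per length were compared within each class, as CPM per kb of exon (union of exons). Gamma transcripts summed to 1129 ± 78.1 CPM per kb in IP (SD, n = 3) and 574 ± 34.9 in input, a ratio of 1.97. The alpha sum was 518 ± 13.7 in IP and 498 ± 36.8 in input, the beta sum 355 ± 32.6 and 288 ± 9.87, and the Rgs sum 351 ± 25.2 and 279.6 ± 74.6. The gamma libraries did not overlap between groups, nor did the beta libraries, while alpha and Rgs libraries did. With 3 libraries against 3 an exact permutation test cannot go below 0.10, so no test was made of sums or shares.

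Gng3 made up 72.8% ± 6.47 of the gamma level in IP and 49.8% ± 7.07 of it in input (SD, n = 3 each). Gng2 took 12.95% ± 0.771 in IP and 23.1% ± 0.826 in input, so its share was smaller in IP while its own level was not called. Gng4 took 5.42% ± 0.460 in IP. Gng13 took 1.97%, 11.9% and 1.74% in IP replicates 1, 2 and 3, so it was under Gng4 in all but IP replicate 2. Gnb1 made up 80.3% ± 1.34 of the beta level in IP and 82.2% ± 1.91 in input, followed by Gnb5 with 16.9% ± 1.05 and 14.5% ± 1.08. The beta make-up thus stayed within a few percent of the class, while Gng3 held a larger part of the gamma level in IP.

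Among alpha genes, Gnao1 held 27.3% ± 2.65 of the level in IP and 20.4% ± 0.665 in input, and Gnai1 held 27.3% ± 0.552 and 32.9% ± 1.95. With the length of the longest transcript in place of the exon union, Gnao1 held 37.0% and Gnai1 18.5% in IP, so their order depends on the length used. Gnal came next in IP, at 13.9% ± 1.66 in IP and 10.6% ± 1.88 in input, where Gnaq held 11.9% ± 0.737, and Gnaz held 5.81% ± 0.498 and 2.81% ± 0.0985. Among Rgs genes in IP, Rgs4 held 21.5% ± 2.35, Rgs10 18.9% ± 2.93, Rgs2 15.3% ± 0.219, Rgs8 12.1% ± 3.53, Rgs17 11.5% ± 1.21 and Rgs7 11.4% ± 0.531. Rgs4 and Rgs10 did not differ beyond their spread, nor did Rgs8, Rgs17 and Rgs7, and with the longest transcript Rgs10 was first at 27.0% and Rgs4 second at 16.7%. In input Rgs4 held 27.4% ± 4.59 and Rgs10 9.21% ± 1.80.

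**Figure D4:**
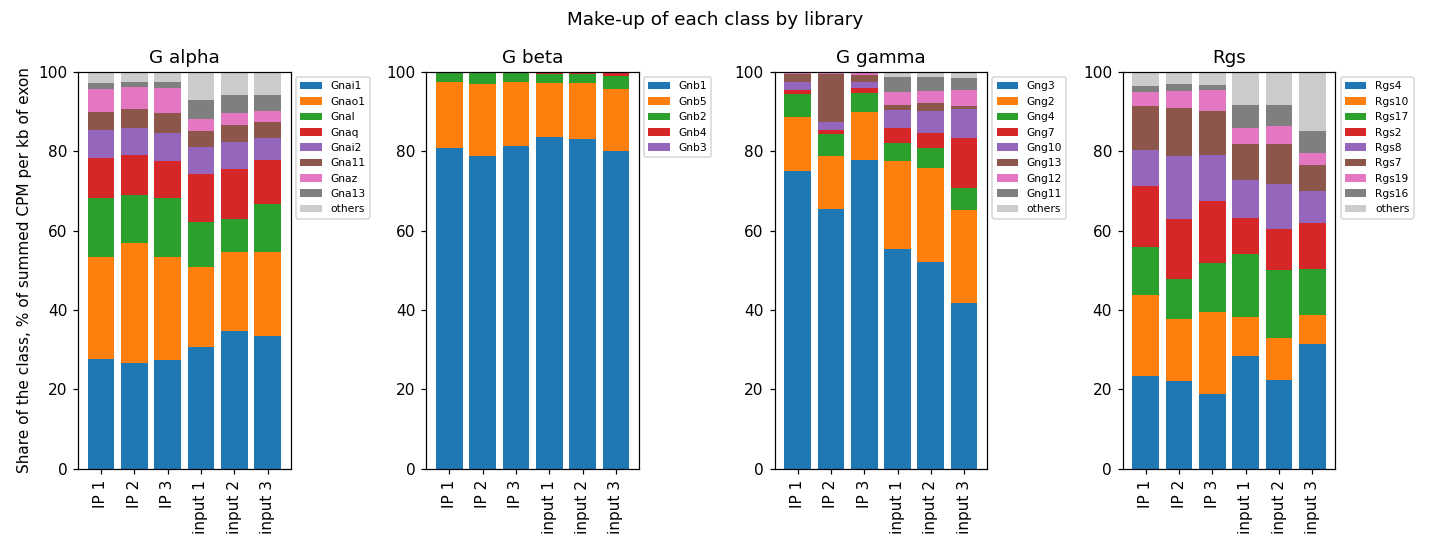
Make-up of each class in each library, as stacked shares in percent of the class's summed CPM per kb of exon, with the 8 largest members coloured and the rest in light grey. Gng3 takes a larger part of the gamma bars in IP (mean 72.8%) than in input (49.8%), while Gnb1 fills about the same part of the beta bars in all libraries (80.3% and 82.2%).

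Partners of the G protein cycle were read from a list of accessory and effector genes, of which 53 had a row and 50 were tested. Of these 13 were higher, 13 lower and 24 not called, which is 52% beside 53.9% of all genes, and the median log2 fold change was 0.01. The largest rises among called genes were Gprin2, Adcy2, Adcy7 and Grk6. Gprin2, a binder of active Gi/o alpha subunits, stood at 0.342 to 0.454 CPM in IP and 0.0987 to 0.144 in input (1.74, SE 0.57, adjusted p 0.0299). Adcy2, an adenylyl cyclase that beta-gamma dimers stimulate, had 102, 93.1 and 57.4 CPM in IP and 40.05, 45.0 and 25.2 in input (1.20, SE 0.26, adjusted p 0.00517). Adcy7, a cyclase of the same group, had 13.7 to 23.2 CPM in IP and 5.75 to 10.96 in input (1.16, SE 0.29, adjusted p 0.00929), and the receptor kinase gene Grk6 had 19.1 to 27.1 and 10.9 to 11.3 (1.004, SE 0.17, adjusted p 0.00129).

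The largest falls on that list were Rgs9bp, Gpsm2, Gpr179 and Rasd1. Rgs9bp, the membrane anchor of Rgs9 in retina, had at most 0.257 CPM in IP and 0.577 to 2.02 in input (-3.46, SE 1.08, adjusted p 0.0244). Gpsm2, which binds inactive Gi subunits and orients the mitotic spindle, had 1.12 to 1.94 CPM in IP and 7.84 to 10.7 in input (-2.73, SE 0.28, adjusted p 0.000134), and it was the only gene of the list past 2-fold. Gpr179, an orphan receptor that anchors R7 proteins, had 0.143 to 1.42 CPM in IP and 1.36 to 3.76 in input, with overlapping groups (-2.12, SE 0.78, adjusted p 0.0459). Rasd1, a Ras-like activator of G protein signalling, had 0.700 to 1.56 CPM in IP and 2.43 to 5.68 in input (-1.73, SE 0.43, adjusted p 0.00949). None of the G protein-gated potassium channel genes Kcnj3, Kcnj5, Kcnj6 and Kcnj9 passed 2-fold, with Kcnj9 higher (0.80, SE 0.24, adjusted p 0.0205), Kcnj6 lower (-0.51, SE 0.14, adjusted p 0.0163) and Kcnj3 and Kcnj5 not called.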

How the data were processed

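Each file holds the deposited raw read counts per gene symbol for 1 library, with no normalization by the authors. The submitters' processing notes name STAR 2.0.0e, HTSeq and the build mm10. How strand and overlaps were handled, and with which annotation, is not given in the sources used here, so overlapping and antisense genes cannot be told apart. The 5 summary lines and the unknown line (0 or 1 count) were left out of totals and tests.

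Groups and replicate numbers came from the titles. Genes were filtered with filterByExpr (minimum count 10, minimum total 15), scaled by TMM, then tested (edgeR 4.0.16, R 4.3.3; robust quasi-likelihood F test, two-sided, group only, Benjamini-Hochberg over 17197 genes, threshold 0.05). Changes over 2-fold used glmTreat. SE is the log2 fold change divided by the square root of F. Depth was 38058239 to 45841499 counts. Alternatives included limma 3.58.1 and DESeq2 1.42.0. The fit was tested on simulated data.

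Same-numbered IP and input libraries share a lane number in their labels, so the numbers mark at least a shared lane. Deviations from group means correlated at 0.155, 0.0744 and 0.0506 in those pairs. In pairs with unlike numbers they correlated at -0.107 to 0.0207, below every same-numbered pair. The main fit left this pairing out, and the fit with the replicate number as a block used it. Chi-square per degree of freedom between replicates was 25.6 to 79.3, so no library copied another. Between replicates 1 and 2 it was 30.1 in IP and 25.6 in input. In pairs with replicate 3 it was 77.8 and 79.3 in IP and 72.8 and 64.3 in input, so replicate 3 lay further off in both groups. Exon lengths, positions and overlaps came from GENCODE M21 (GRCm38), and promoter windows from RefSeq (GRCm38.p6). The members and lists were chosen with earlier results of these data known. Named members were, in each class, the up to 4 largest rises and falls among called genes, the most abundant, and any with 1 library over 3 times the other 2 of its group; others were added after their values were seen. Of the accessory list, the 4 largest rises and falls were named, with Pcp2, Rgs7bp and the Kcnj genes added after their values were seen.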

Additional observations from a re-analysis of the deposited data

How the results depend on the processing

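No called member changed direction in these runs, which covered members and not the accessory genes, and 20 of the 30 called members were called under every alternative. With an adjusted p under 0.01, 6 members were higher, 14 lower, 2 past 2-fold upward and 7 downward. DESeq2 put 1 member past 2-fold upward, and limma-voom put 8 past 2-fold downward. Leaving out 1 library at a time gave 9 to 12 members higher, 15 to 20 lower, 2 to 3 past 2-fold upward and 9 to 12 downward, with 3721 to 4384 of all genes higher and 4164 to 4783 lower. The upward share of calls over all genes was 48.2%, and it was 38.1% under the upper-quartile and 39.2% under the library-total scaling. With the replicate number as a block, 15 members were higher, 17 lower, 2 past 2-fold upward and 10 downward (4811 and 4879 of all genes); the changed calls are those of Gna11, Gnal, Gnb2 and Rgs9. With the longest transcript's length Gnao1 held 37.0% of the alpha level in IP, Gnb1 78.3% of the beta and Rgs4 16.7% of the Rgs level. The cause of these shifts was not tested beyond the change of length, scaling, threshold or samples itself. Depth limits Gna15, Gngt2 and the 7 members not tested, which were not detectable or near the floor in IP.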
